A study of Canis lupus familiaris with 8 samples.

Results

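Of the 32704 genes counted in MDCK I cells, 90 were selected here as genes that were lowered by hyperosmolality and whose counts moved little with either of a pair of siRNAs against Nfat5. MDCK I is an established line of canine kidney epithelial cells, and its poly(A) RNA was sequenced in 8 libraries, 2 in each of 4 groups. Neg-siRNA (300 mOsm) cells stayed in isosmotic medium. The cells of the other 3 groups, which were Neg-siRNA (500 mOsm) and the same treatment with Nfat5-1-siRNA or Nfat5-2-siRNA, received raffinose, a sugar that raises the osmolality, for 24 h. Every group was reverse transfected with 100 nM siRNA, and Neg-siRNA targets Slc22a6, a transporter gene that the authors describe as not expressed in these cells, so all controls carry the transfection as well. Replicate 1 came from cells of passage 15 and replicate 2 from cells of passage 17 in every group, all of 1 cell line. The libraries held between 34564103 and 46043788 counted reads.

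The members were selected on measured values of the same comparisons that are described below. Counts were divided by median-of-ratios size factors, which are called normalised counts below, and the log2 of each group mean plus 1 was compared between groups. Among the 9951 genes with a group mean of at least 400, 476 were lower by 1.5 or more on this log2 scale in Neg-siRNA (500 mOsm) than at 300 mOsm. The 90 members are the 18.9% of these in which both Nfat5 siRNA groups lay within 0.35 of Neg-siRNA (500 mOsm). The other 386 lowered genes comprised 126 above the window with both siRNAs, 112 below it with both, 69 outside it with Nfat5-1-siRNA only, 72 outside it with Nfat5-2-siRNA only and 7 outside it in opposite directions. Since all comparisons between the groups entered the selection, their values are given for the members as a description. Where calls of the fits in these comparisons are counted over the members, the selection set those counts, and they are no test of the members.

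Hyperosmotic medium draws water out of cells, which then raise their content of compatible organic osmolytes. Nfat5, also known as TonEBP, is the transcription factor best known for this response in the kidney, where it activates genes for osmolyte transporters and for aldose reductase. Hyperosmotic stress also lowers many transcripts, and a lower transcript level in bulk RNA can reflect less synthesis or faster decay. In bulk samples, fewer cells of a kind and less RNA per cell cannot be told apart.

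Genes of the osmolyte response showed that the siRNA libraries differed from their control. AKR1B1, which encodes aldose reductase, had normalised counts of 736 and 928 at 300 mOsm, which rose to 45289 and 47830 in Neg-siRNA (500 mOsm). With Nfat5-1-siRNA it had 13106 and 7307, and with Nfat5-2-siRNA 11599 and 10817. Compared to the control siRNA at 500 mOsm, the log2 change was -2.19 for the first siRNA (edgeR quasi-likelihood test, adjusted p = 0.000532) and -2.05 for the second (edgeR, adjusted p = 0.000418). The Nfat5 gene itself carries no symbol in the tables used here. ENSCAFG00000020254 (CanFam 3.1, chr5:80003598-80115099, reverse strand) lies next to NQO1, where the dog RefSeq annotation has NFAT5. Its normalised counts were 889 and 971 at 300 mOsm, 3485 and 3164 in Neg-siRNA (500 mOsm), 4249 and 3623 with Nfat5-1-siRNA and 3030 and 3067 with Nfat5-2-siRNA. If this gene is Nfat5, its RNA level does not check which siRNA a library received, because neither siRNA group was lower by the test (adjusted p = 1 for both, edgeR).

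None of the 90 member identifiers is paired with a gene symbol. The 860 symbols of the study's gene list all belong to other genes of the count table, and the RefSeq table, which was built on another assembly, holds no Ensembl identifiers. The members are therefore called by their Ensembl identifiers and described by position, structure and level, and symbols are used only for genes that flank them. They lay on 29 numbered or X chromosomes and 1 unplaced scaffold, with 7 members each on chromosomes 2, 6 and 9 and 5 on chromosome X. The X chromosome held 5.56% of the members, 2.33% of the other lowered genes and 2.91% of all genes with a group mean of at least 400. The median exonic length was 2217.5 bases in the members, 2349.5 in the other lowered genes and 2507 in all such genes, and the median number of separate exon blocks was 9, 9 and 10. These medians were close to each other, and no test was made of them.

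Together the members took up a smaller part of each library at 500 mOsm. They held 2.71% and 3.40% of all counted reads in the Neg-siRNA (300 mOsm) libraries and between 0.572% and 0.711% in the 6 libraries at 500 mOsm. Their summed normalised counts were 1107242 and 1428725 at 300 mOsm and ranged from 256187 to 302925 at 500 mOsm. This sum was carried by few genes, since the 5 most abundant members made up 78.3% of the summed Neg-siRNA (300 mOsm) means. At 300 mOsm, 31 members had a mean under 1000 and 11 a mean of at least 10000, with 48 in between. The median member kept 29.6% of its Neg-siRNA (300 mOsm) mean at 500 mOsm, with a range from 4.86% to 35.4%.

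The 90 log2 changes ran from -4.33 up to the threshold, with a median of -1.76, and 28 members were lower by at least 2. By the edgeR test, 89 of 90 members were called lower, where 9.23% of all 19835 genes tested were called lower. In 89 of 90 members both libraries at 300 mOsm lay above all 6 libraries at 500 mOsm, as they did in 25.8% of the genes with a group mean of at least 400. The selection fixes both counts, and nothing is read from them. The exception was the same gene in both, ENSCAFG00000014360. With passage as a block it was called lower too, as were all 90 members, where 3124 of all 19835 genes tested were called lower. The selection was made on the same contrast and fixes this count as well. The lowest library at 300 mOsm was at least 2-fold above the highest at 500 mOsm in 80 members, as in 4.42% of the genes with a group mean of at least 400, and the median ratio in the members was 2.68. The size of the fall that was asked for sets this count too. Across the 90 genes, the level and the fall had a Spearman rho of 0.05. The selection cut both values and the genes share the same libraries, so no relation is read from it.

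The 3 members with the highest levels per kilobase of exon also had the 3 highest normalised counts. ENSCAFG00000023647 (chr9:21240778-21245039, forward strand, 6 exon blocks, 1547 exonic bases) had 194177 normalised counts per kilobase in Neg-siRNA (300 mOsm), which dropped to 41571 at 500 mOsm. Its normalised counts were 288590.0 and 312195 at 300 mOsm and 64629 and 63991 in Neg-siRNA (500 mOsm). With Nfat5-1-siRNA they were 67996 and 65958, and with Nfat5-2-siRNA 55182 and 50920.0. The group mean thus fell 4.67-fold, from 300392 ± 16691 (SD, n = 2) to 64310.0 ± 452 (SD, n = 2), and both passages gave nearly the same values. Both Nfat5-2-siRNA libraries lay below both Neg-siRNA (500 mOsm) libraries, and both Nfat5-1-siRNA libraries lay above them.

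The second was ENSCAFG00000001778 (chr1:84743276-84763121, reverse strand, 13 exon blocks), which had the highest normalised count of all members and the third largest fall. It measured 279730 and 499563 at 300 mOsm, 42192 and 63498 in Neg-siRNA (500 mOsm), 42169 and 48017 with Nfat5-1-siRNA and 48896 and 50811 with Nfat5-2-siRNA. The fall was 2.88 on the log2 scale, and the libraries at 300 mOsm differed widely between the passages. The next expressed gene on the chromosome, ENSCAFG00000001791, was lowered by the same threshold, from a mean of 4276 to 768, but lay outside the siRNA window.

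The third was ENSCAFG00000007154 (chr27:2189327-2193773, reverse strand, 7 exon blocks). It measured 205566 and 265325 at 300 mOsm, 67656 and 78513 in Neg-siRNA (500 mOsm), 64393 and 70039 with Nfat5-1-siRNA and 59277 and 72582 with Nfat5-2-siRNA. The 3 groups at 500 mOsm overlapped in this gene, and all 6 of their libraries lay below both libraries at 300 mOsm. It lies between SPRYD3 and KRT5 with 19 count table genes between them. RefSeq lists TNS2, EIF4B, KRT18, KRT8, KRT78, KRT79, KRT4, KRT3, KRT76, KRT127, KRT77, KRT1, KRT2, KRT73, KRT72, KRT74, KRT71 and 1 locus without a symbol in this interval, and most of these encode keratins, the intermediate filament proteins of epithelia. Which of these the identifier stands for was not resolved. The next expressed gene, ENSCAFG00000007199, had means of 317159 at 300 mOsm and 113307 in Neg-siRNA (500 mOsm), a log2 difference of -1.48 that missed the selection narrowly.

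ENSCAFG00000014333 and ENSCAFG00000032326 followed per kilobase. ENSCAFG00000014333 (chr3:58804790-58807189, forward strand, 2 exon blocks, 345 exonic bases) fell by 2.44 on the log2 scale, from 30784 and 35250 to 5038 and 7121. ENSCAFG00000032326 (chr7:43480708-43482461, forward strand, 2 exon blocks, 968 exonic bases) fell by 2.76, from 22140 and 47049 to 3315 and 6909. With Nfat5-1-siRNA it had 3885 and 6624, and with Nfat5-2-siRNA 3394 and 6460.1. The passage 17 library was above the passage 15 library in all 4 groups, and the 3 groups at 500 mOsm overlapped. This gene lies between S100A5 and S100A4, which encode small calcium-binding proteins, with 9 count table genes between them. RefSeq lists no protein-coding gene between the same pair, so its name was not narrowed further. Its next expressed genes on either side had log2 differences of 1.91 (S100A4) and -0.89 (ENSCAFG00000017545) between the same groups.

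The next 3 in level per kilobase were ENSCAFG00000014076, ENSCAFG00000008596 and ENSCAFG00000016966. ENSCAFG00000014076 (chr3:58103290-58113661, forward strand, 11 exon blocks) had 29616 normalised counts per kilobase at 300 mOsm and 10470.1 in Neg-siRNA (500 mOsm), the smallest fall of the 90. ENSCAFG00000008596 (chrX:112073757-112074383, forward strand, 1 exon block) measured 6518 and 7826 at 300 mOsm and 2193 and 2296 in Neg-siRNA (500 mOsm). With Nfat5-1-siRNA it had 2012 and 2029, and with Nfat5-2-siRNA 1681 and 2088, all below both Neg-siRNA (500 mOsm) libraries. ENSCAFG00000016966 (chr30:27636259-27664073, forward strand, 13 exon blocks) measured 10831 and 9620.1 at 300 mOsm and 2291 and 2688 in Neg-siRNA (500 mOsm). In each of the 3, all libraries at 500 mOsm lay below both at 300 mOsm.

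**Figure D1:**
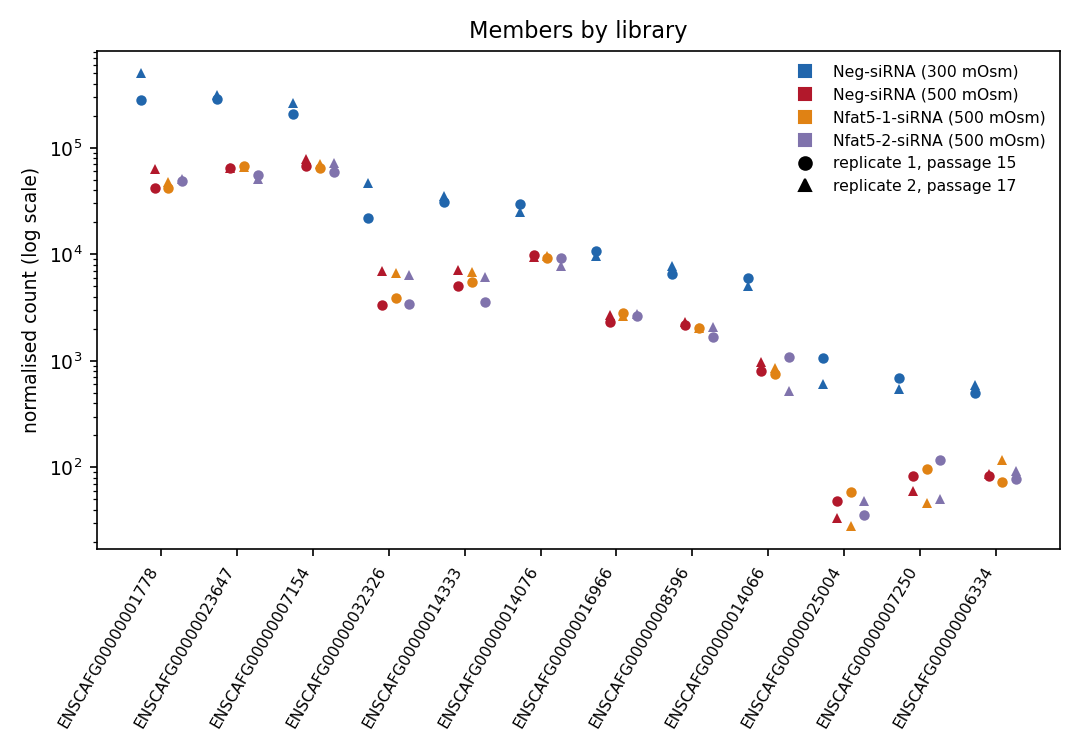
Normalised counts on a log scale of 12 members, those with the 6 largest falls or among the 8 highest counts per kilobase, in each of the 8 libraries (colour, group; circles, passage 15; triangles, passage 17). The libraries at 300 mOsm lie above those at 500 mOsm in each of the 12, and the groups at 500 mOsm overlap in most of them. In ENSCAFG00000023647 these groups do not overlap, and in ENSCAFG00000008596 both Nfat5 siRNA groups lie below Neg-siRNA (500 mOsm). The passages are apart in ENSCAFG00000032326, and the Nfat5-2-siRNA libraries are far from each other in ENSCAFG00000014066.

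The pair of members with the largest falls had low counts. ENSCAFG00000025004 (chr15:13638745-13657531, forward strand, 12 exon blocks) fell 20.6-fold, the largest change of the 90. It measured 1074 and 609 at 300 mOsm, 48.5 and 33.3 in Neg-siRNA (500 mOsm), 58.2 and 28.0 with Nfat5-1-siRNA and 36.0 and 48.4 with Nfat5-2-siRNA. At 500 mOsm the 3 groups overlapped, and all 6 libraries lay far below both at 300 mOsm. Its preceding expressed neighbour, ENSCAFG00000004033, was lowered by the same threshold, from a mean of 10391 to 1448, and was not a member, whereas its following one, CYP4B1, had means of 28.4 and 2315.

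ENSCAFG00000007250 (chr25:17414397-17546756, reverse strand, 25 exon blocks) fell 8.63-fold. It measured 697 and 539 at 300 mOsm, 83.7 and 59.5 in Neg-siRNA (500 mOsm), 96.0 and 46.4 with Nfat5-1-siRNA and 118 and 50.4 with Nfat5-2-siRNA. It lies between SAP18 and CRYL1, and RefSeq lists LATS2, XPO4, EEF1AKMT1, IL17D and IFT88 in that interval. The identifier was not matched to any of these. CRYL1, which encodes a crystallin-related dehydrogenase, was the next expressed gene on one side, with a log2 difference of -0.63, and ENSCAFG00000007231 on the other, with -1.73.

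Further members with falls between 5- and 7-fold were ENSCAFG00000006334 at 6.47-fold (chr22:60697016-60713255), ENSCAFG00000014066 at 6.20-fold (chr7:21638999-21667291), ENSCAFG00000019092 at 6.09-fold (chr6:36354730-36369071) and ENSCAFG00000004506 at 5.95-fold (chr16:14548097-14599147). ENSCAFG00000004506 was the member with the most exon blocks, 104, and the lowest count per kilobase, 31.0 at 300 mOsm. It lies between ZNF282 and RARRES2, where RefSeq lists ZNF212, ZNF783, ZNF777, ZNF746, KRBA1, ZNF467, SSPO, ZNF862, ATP6V0E2, REPIN1 and ZBED6CL, and it was not matched to one of them. ENSCAFG00000007268 (chr24:22096400-22121962) fell 5.32-fold and ENSCAFG00000014595 (chr8:27235173-27307767) 5.12-fold.

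ENSCAFG00000014595 was the member with the smallest siRNA changes when each passage was compared on its own, although several other members, ENSCAFG00000016900 and ENSCAFG00000004506 among them, were closer to 0 in their group means. It measured 8261 and 8506 at 300 mOsm, 1571 and 1705 in Neg-siRNA (500 mOsm), 1586 and 1783 with Nfat5-1-siRNA and 1660.2 and 1816 with Nfat5-2-siRNA. Within a passage, its largest siRNA change was 0.09 on the log2 scale. It shares 3.71% of its exonic bases with an antisense gene, and the counting did not use strand, so reads from the shared part cannot be assigned. Such sharing touched 10 members, 9 of them with an antisense gene, and reached 51.4% of the exonic bases in ENSCAFG00000012169 and 21.7% in ENSCAFG00000036094.

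Both siRNAs left the members scattered around 0, as the selection required. The median log2 change was -0.02 for Nfat5-1-siRNA and 0.02 for Nfat5-2-siRNA. Compared to Neg-siRNA (500 mOsm), 27 members were lower with both siRNAs, 27 were higher with both and 36 moved in opposite directions. By the edgeR test, 0 of 90 members were called with Nfat5-1-siRNA, where 7.93% of all genes tested were called, and 0 of 90 with Nfat5-2-siRNA, where 12% were called. None had an unadjusted p under 0.05 in either comparison, and DESeq2 called 0 in both. With passage as a block, which raised the calls over all genes to 4264 with Nfat5-1-siRNA and 5168 with Nfat5-2-siRNA, the members called stayed at 0, and 7 and 9 members had an unadjusted p under 0.05. The window set these counts, and they do not show that the siRNAs had no effect on a member.

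**Figure D2:**
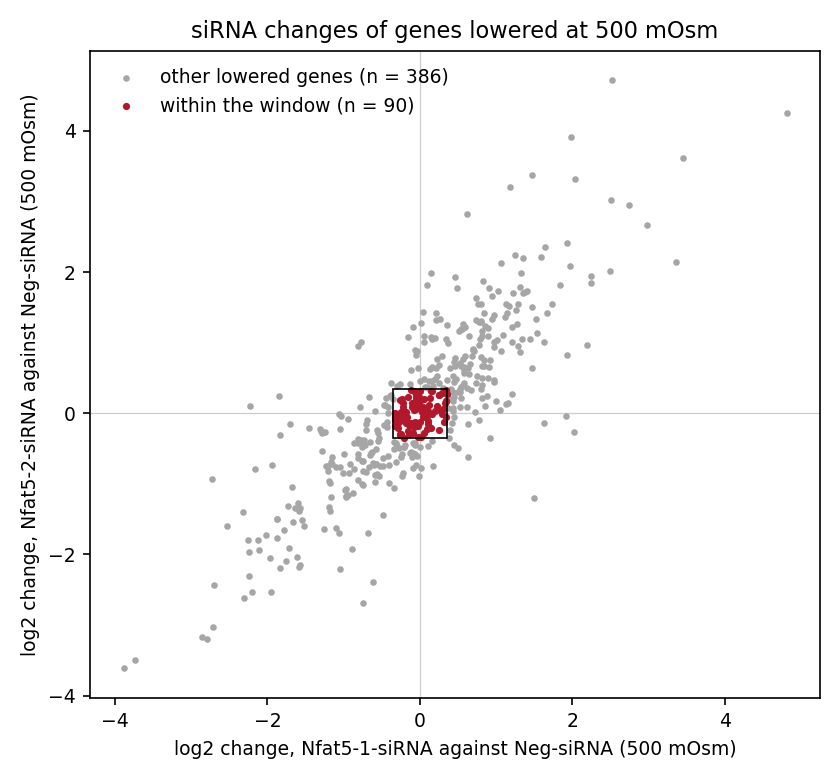
Log2 change with Nfat5-1-siRNA (horizontal) and with Nfat5-2-siRNA (vertical), both compared to Neg-siRNA (500 mOsm), for the 476 genes lowered at 500 mOsm, with 1 point per gene. The square is the window of 0.35 on each side that holds the 90 members (red), and the 386 other lowered genes (grey) spread outwards from it without a gap.

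The siRNA window also set the size of the members' siRNA differences. The median absolute log2 change of the group means was 0.14 with Nfat5-1-siRNA and 0.15 with Nfat5-2-siRNA. For scale, the single replicates of a group differed by a median of 0.21 in Neg-siRNA (300 mOsm), 0.26 in Neg-siRNA (500 mOsm), 0.19 with Nfat5-1-siRNA and 0.32 with Nfat5-2-siRNA, which are differences of libraries and not of means. In 10 members the range of the 4 Nfat5 siRNA libraries was apart from that of the Neg-siRNA (500 mOsm) libraries, compared to 57.6% of the genes with a group mean of at least 400, and the window sets this count as well. Compared within passage 15, 71 members lay inside the window with Nfat5-1-siRNA and 63 with Nfat5-2-siRNA, and within passage 17 these counts were 72 and 67. All 4 within-passage changes were inside it in 28 members.

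Membership depended on which libraries formed the means. Applied to passage 15 alone the same rule selected 80 genes, 44 of them members, and applied to passage 17 alone it selected 68, 46 of them members. Only 19 genes met the rule in each passage alone, and 19 members met it in neither. A gene that meets the rule in each passage also meets it in the means of both, so the former 19 are members by arithmetic. ENSCAFG00000023647, ENSCAFG00000007154, ENSCAFG00000032326 and ENSCAFG00000014595 were among those that met it in each. Leaving out Neg-siRNA (500 mOsm) replicate 1 gave 78 genes, 58 of them members, and leaving out Neg-siRNA (500 mOsm) replicate 2 gave 90 genes, 55 of them members. The label of siRNA independence thus rests on means of 2 libraries.

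The values ran on across the edges of the rule without a gap. The 3 smallest falls inside it were those of ENSCAFG00000014076, which lay on the threshold, ENSCAFG00000008528 at -1.51 and ENSCAFG00000013975 at -1.51. Just outside lay ENSCAFG00000032285 at -1.49, ENSCAFG00000007199 at -1.48 and ENSCAFG00000016479 at -1.48. For the siRNA window, ENSCAFG00000030979 and ENSCAFG00000031995 were the last inside, at 0.349 and 0.348, and ENSCAFG00000013291 and ENSCAFG00000019464 the first outside, at -0.351 and 0.352.

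The falls within each passage come from the same libraries whose means the selection required to fall, so their values are a description and not a replication. The median fall was -1.81 in passage 15 and -1.75 in passage 17. The smallest single value was -1.16, in ENSCAFG00000005595 in passage 17.

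**Figure D3:**
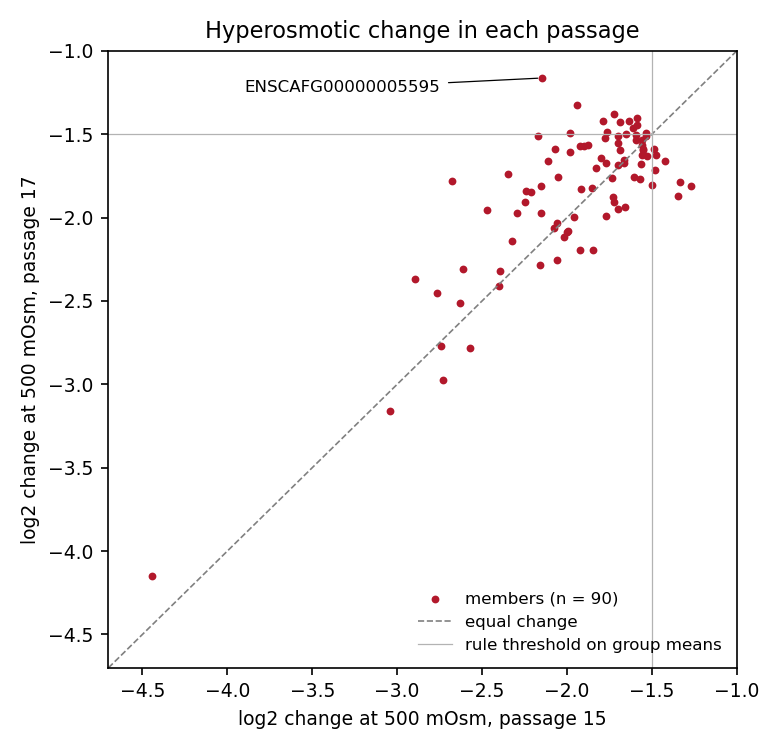
Log2 change of the Neg-siRNA libraries from 300 to 500 mOsm within passage 15 (horizontal) and within passage 17 (vertical) for the 90 members, each a ratio of 1 library to 1 library. The points lie around the dashed line of equal change, with medians of -1.81 in passage 15 and -1.75 in passage 17, and ENSCAFG00000005595 lies farthest above the line. The selection on the means of both passages keeps the points low on both axes.

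The passage itself was a comparison that the selection did not use, since each group mean held 1 library of each passage. Each passage was sampled once, and its libraries are not independent replicates of it. Passage number therefore cannot be told apart from any other difference between the cultures, and the SE and p-values below do not cover the spread between cultures. In edgeR with group and passage as terms, 10 of 90 members differed between passage 17 and passage 15 at an adjusted p under 0.05, 3 higher and 7 lower in passage 17. This was 11.1% of the members, compared to 3.29% of all genes tested, 5.83% of genes with a group mean of at least 400 and 12.4% of the other lowered genes, so the share was near that of the other lowered genes. The median absolute passage difference was 0.19 in the members, 0.18 in the other lowered genes and 0.13 in genes with a group mean of at least 400. The main fit called 653 of all 19835 genes. With the filterByExpr filter in place of the summed count of at least 5, 2 members were called, where 101 of all 15388 genes were. DESeq2 called 7 members, where 483 of all 19835 genes were called. Leaving out a Neg-siRNA (500 mOsm) or a Nfat5-2-siRNA library lowered the calls over all genes as well as those in the members.

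A pair of members kept the call under each of 13 alternatives, which are not independent checks. Benjamini-Hochberg adjustment of the same fit could not lose a call, and leaving out either library of a group gave nearly the same estimate. ENSCAFG00000032326, the gene between S100A5 and S100A4, was higher in passage 17 by 0.96 on the log2 scale (SE 0.09, edgeR adjusted p = 3.0e-14), and its passage 17 library was the higher one in 4 of 4 groups. ENSCAFG00000014360 (chr34:27322408-27322635, reverse strand, 1 exon block, 228 bases) was lower in passage 17 by -1.96 (SE 0.20, edgeR adjusted p = 4.1e-13). It measured 815 and 165 at 300 mOsm, 127 and 47.4 in Neg-siRNA (500 mOsm), 170.1 and 42.9 with Nfat5-1-siRNA and 139 and 33.6 with Nfat5-2-siRNA. Its passage 17 library at 300 mOsm was thus slightly below the passage 15 library of Nfat5-1-siRNA, although it fell within each passage. Reads of such a short gene with 1 exon block could also belong to a near-identical copy, which was not tested.

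The other 8 calls had smaller differences, and each was lost under at least 1 of the 13 alternatives. ENSCAFG00000001778 was higher in passage 17 by 0.42 (SE 0.10, edgeR adjusted p = 0.0166) and ENSCAFG00000014333 by 0.44 (SE 0.09, edgeR adjusted p = 0.00385). ENSCAFG00000005595 was lower by -0.82, ENSCAFG00000007250 by -0.75, ENSCAFG00000005019 by -0.67, ENSCAFG00000012763 by -0.64, ENSCAFG00000013352 by -0.60 and ENSCAFG00000019176 by -0.47. ENSCAFG00000005019 (chr2:28067975-28088199) measured 13024 and 5811 at 300 mOsm, 3397 and 2318 in Neg-siRNA (500 mOsm), 3916 and 3281 with Nfat5-1-siRNA and 3921 and 2411 with Nfat5-2-siRNA. The passage 15 library was the higher in each group of this gene, whose call was lost under filterByExpr only.

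Most of these 8 calls were lost when 1 library was left out, which also takes the other library of its group out of the passage estimate. The call of ENSCAFG00000013352 was lost under 10 alternatives, among them the removal of any of the 8 libraries. Its difference nevertheless stayed between -0.63 and -0.58. ENSCAFG00000007250 lost its call under 9, among them the removal of any library but Neg-siRNA (300 mOsm) replicate 2. Its difference lay between -0.93 and -0.60 over the alternatives, compared to -0.75 in the main fit. ENSCAFG00000001778 lost it under 6: its difference was 0.27 without Neg-siRNA (300 mOsm) replicate 1, 0.28 without Neg-siRNA (300 mOsm) replicate 2 and 0.34 without either Neg-siRNA (500 mOsm) library. Without either library at 300 mOsm, the difference of ENSCAFG00000005595 went to -0.52 and -0.51, and the call was lost. Leaving out either Nfat5-2-siRNA library ended the calls of ENSCAFG00000012763, ENSCAFG00000014333 and ENSCAFG00000019176, with differences of -0.49, 0.33 and -0.38. ENSCAFG00000014333 also lost its call without either Neg-siRNA (500 mOsm) library, at 0.40, and ENSCAFG00000019176 without either Nfat5-1-siRNA library, at -0.42.

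**Figure D4:**
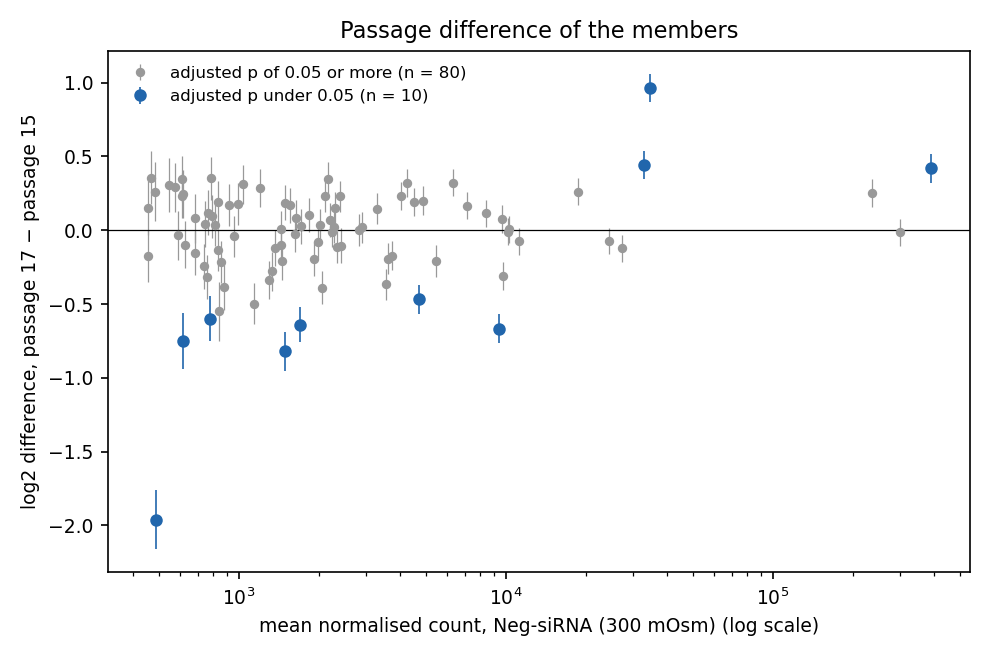
Log2 difference between passage 17 and passage 15 from edgeR (vertical; bars, 1 SE over 8 libraries) against the mean normalised count in Neg-siRNA (300 mOsm) on a log scale for the 90 members. The 10 members with an adjusted p under 0.05 (blue) include the 2 largest differences, -1.96 in ENSCAFG00000014360 and 0.96 in ENSCAFG00000032326, and most others lie within 0.5 of 0.

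Whether the hyperosmotic change differed between the passages was tested by the interaction of passage and osmolality. A single member, ENSCAFG00000005595 (chr22:48343160-48573544, forward strand, 27 exon blocks), passed the threshold, with a log2 difference of 1.19 (SE 0.28, edgeR adjusted p = 0.0486). At 300 mOsm each passage had 1 library, so the spread in this test came from the groups at 500 mOsm, and a library at 300 mOsm was assumed to vary like them. The call is 1.11% of the members, compared to 0.418% of all genes tested, 0.744% of genes with a group mean of at least 400 and 3.63% of the other lowered genes. It measured 2268 and 702 at 300 mOsm, 511 and 313 in Neg-siRNA (500 mOsm), 499 and 354 with Nfat5-1-siRNA and 487 and 382 with Nfat5-2-siRNA. The passages differed most at 300 mOsm, and the groups at 500 mOsm were alike within each passage. The call was lost under 10 of 11 alternatives, including the removal of any library at 500 mOsm. The 1 that kept it was Benjamini-Hochberg adjustment of the same fit (edgeR, adjusted p = 0.00464), which is less strict than the main adjustment and could not lose a call. It was lost with DESeq2 size factors in edgeR (adjusted p = 0.0623), without a count filter (edgeR, adjusted p = 0.0589) and in DESeq2 (adjusted p = 0.775).

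Some members lay close together on the chromosomes. Between MLF2 and CD9 on chromosome 27, where the count table has 22 genes, 3 were members. ENSCAFG00000015124 (chr27:38474709-38497591, reverse strand, 32 exon blocks) changed by -1.64 on the log2 scale, ENSCAFG00000015196 (chr27:38612488-38637549, forward strand) by -1.90 and ENSCAFG00000015203 by -2.07. RefSeq lists COPS7A, PIANP, ZNF384, ING4, ACRBP, LPAR5, CHD4, NOP2, IFFO1, GAPDH, NCAPD2, MRPL51, VAMP1, TAPBPL, CD27, LTBR, SCNN1A, TNFRSF1A and PLEKHG6 in this interval, and which of them the 3 identifiers are was not resolved. Expressed genes between them did not meet the threshold of the fall, so the 3 were not a run of neighbours.

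Direct neighbours among the members were ENSCAFG00000034193 and ENSCAFG00000030475, 2695 bases apart on the forward strand of chromosome 17, ENSCAFG00000019431 and ENSCAFG00000029381, 692 bases apart on the forward strand of chromosome 9, and ENSCAFG00000010704 and ENSCAFG00000010717 on chromosome 25. The chromosome 17 pair measured 869 and 968 against 1071 and 1318 at 300 mOsm, and 261 and 262 against 268 and 309 in Neg-siRNA (500 mOsm). Of the 174 distinct nearest expressed neighbours, 6 were themselves members. Among the 168 others, 9 were lowered by the same threshold, which is 5.36%. The share in all genes with a group mean of at least 400 was 4.78%, but it includes the members, so these shares are not alike. The median log2 change of the 168 was -0.17, compared to 0.0046 in all such genes. Most of the nearest expressed neighbours were thus not lowered, and whether members lie near each other more often than other genes was not tested.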

How the data were processed

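The deposited table holds raw counts of reads per gene. Per the labels and the study's methods, the authors aligned paired-end reads of 51 bases to CanFam 3.1 with HISAT2 2.0.5 and counted exonic reads without regard to strand with featureCounts 1.5.1 and the Ensembl 92 annotation. The exonic length of each gene comes from the same deposited table. No column was left unused. Size factors ranged from 0.823 to 1.14. The rule was applied to the normalised counts, and per-kilobase levels divide them by exonic length.

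Genes whose counts summed to 5 or more over the libraries (19835 genes) were fitted in edgeR 4.0.16 (R 4.3.3) with TMM scaling, quasi-likelihood tests and Benjamini-Yekutieli adjustment at 0.05, using all 8 libraries. DESeq2 1.42.0 was an alternative. On simulated counts of 14485 genes with 200 changed 4-fold, edgeR recovered 193 for the hyperosmotic comparison, 196 for passage and 168 for the interaction. The simulation left out the genes with the lowest counts and gave all genes 1 common spread, taken from the fit with passage as a block. That spread is smaller than in the fit without the block, which the hyperosmotic comparison used. All passage and interaction differences called in the members were under 4-fold, so these recoveries do not apply to them. Replicate numbers mark passages and thus pair the libraries, and the passage differences of the groups correlated with r between 0.147 and 0.556 over 9951 genes. Passages are separate cultures of 1 line, so p-values of the group comparisons cover culture and library spread only. The p-values for passage cover only the spread among libraries of the same passages, because each passage was sampled once. Counting error adds to that spread in libraries with few counts of a gene.

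The members and lists were chosen with earlier results of these data known. The 12 largest falls and the 8 highest levels per kilobase were to be named by symbol; as no member has one, they were named by identifier, and other genes after their values were seen. For the same reason fixed gene lists and cell type markers were not analysed here. Sequences were not used here. RefSeq symbols (UU_Cfam_GSD_1.0) were used for gene neighbourhood only.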

Additional observations from a re-analysis of the deposited data

Results flagged for a closer look

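The hyperosmotic change of ENSCAFG00000005595 passed the threshold in the test of a difference between the passages, with an interaction of 1.19 on the log2 scale (edgeR, adjusted p = 0.0486). The test rests on 1 library per passage at 300 mOsm, whose own spread was not measured. Its log2 change in Neg-siRNA was -2.15 in passage 15 and -1.16 in passage 17, and the passage 15 library at 300 mOsm, at 2268 normalised counts, set it apart from the passage 17 library at 702. Over its 11 alternatives the difference stayed between 1.11 and 1.28, with adjusted p up to 1.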

How the results depend on the processing

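The number of members was 142 with a looser fall threshold, 28 with a threshold of -2, 49 with a siRNA window of 0.25 and 147 with 0.5, and 73 to 96 without 1 library. TMM scaling gave 91, of which 83 were members, and shifted the median hyperosmotic change by 0.016. Because passage pairs the libraries, the replicate block was fitted: it gave 6565 calls for hyperosmolality (4077 without it), 4264 for Nfat5-1-siRNA (1572) and 5168 for Nfat5-2-siRNA (2390), called all 90 members lower at 500 mOsm and none with either siRNA. Benjamini-Hochberg adjustment gave 7033, 4033, 5250, 1570 and 133 calls for hyperosmolality, Nfat5-1-siRNA, Nfat5-2-siRNA, passage (653) and the interaction (83), with 17 members called for passage. Without a count filter, Nfat5-1-siRNA had 2866 calls, Nfat5-2-siRNA 3760 and the interaction 0 members. DESeq2 gave 2682 calls for Nfat5-1-siRNA and 25 for the interaction, with 0 members, and its size factors in edgeR also left 0 members there. With filterByExpr, passage had 101 calls with 2 members, and the interaction 1 call with 0 members. Without 1 library, calls were 2384 to 4157 for hyperosmolality (79 to 88 members), 159 to 1620 for Nfat5-1-siRNA, 954 to 2272 for Nfat5-2-siRNA (0 members in both), 315 to 681 for passage (5 to 8 members) and 29 to 73 for the interaction (0 members). The lowest counts came without Neg-siRNA (500 mOsm) replicate 1 for hyperosmolality, without Nfat5-1-siRNA (500 mOsm) replicate 2 for Nfat5-1-siRNA and without Neg-siRNA (500 mOsm) replicate 2 for Nfat5-2-siRNA; each library of the groups compared lowered these counts by more than 1.5 times. The interaction could not be fitted without a library at 300 mOsm, and the causes were not tested. The fixed gene lists were not run under any setting.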
